A study of Mus musculus with 6 samples.

Results

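The 50 genes described here are the neighbours of the microRNA locus miR-144/451 on mouse chromosome 11. They were chosen by position, 18 before the locus in chromosome order and 32 after it, and 18 other measured genes of the same span are not among them. All 50 were measured, by 110 probe sets whose annotation names only that gene, out of 18193 genes and 45037 probe sets tested. The question is whether transcripts of genes beside a deleted locus differ when the locus is gone.

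Sorted bone marrow erythroblasts of 3 mice lacking miR-144/451 (knockout, KO; arrays 493, 548 and 551) were compared with those of 3 wild-type mice (WT; arrays 497, 504 and 550), with 1 Affymetrix Mouse Genome 430 2.0 array per mouse. The cells were Ter119 and CD71 double positive with high forward scatter, that is, large cells of the erythroid lineage that carry the transferrin receptor. All samples were freshly isolated, and no treatment other than antibody staining and sorting into Trizol LS was labelled. The labels name the genotype as a null of the locus; the borders of the deletion, the strain, the age and the litter were not given in the sources used here.

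miR-144 and miR-451 are made from one precursor transcript that the factor GATA1 switches on in red cell precursors. miR-451 is cut by the slicer activity of AGO2 rather than by DICER, and is among the most abundant microRNAs of maturing red cells. A gene beside a deleted locus can be touched by the deletion itself as well as by the loss of the microRNAs, which is why neighbours are usually looked at in such mutants. The neighbours here have no common function: they include mitochondrial, membrane, ciliary, signalling and chromatin genes, and several that are known mainly from brain, lens, liver or thymus.

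The sequences below show what the KO mice lack according to their labels. They are from RefSeq (GRCm38.p6), on the plus strand of chromosome 11, with the hairpin of Mir144 at chr11:78073005-78073070 and that of Mir451a at chr11:78073170-78073241. Capitals mark the mature strands in the hairpins, and the seed (bases 2 to 8) in the mature microRNAs. The mature strands have different seeds.
Mir144 hairpin: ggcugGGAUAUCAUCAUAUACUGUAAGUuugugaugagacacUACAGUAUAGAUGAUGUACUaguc
Mir451a hairpin: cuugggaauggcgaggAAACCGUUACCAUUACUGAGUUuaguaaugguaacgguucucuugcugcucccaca
mmu-miR-144-3p: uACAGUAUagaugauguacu
mmu-miR-451a: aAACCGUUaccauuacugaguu
Neither microRNA was analysed here, and the genotype of each mouse is the one labelled.

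Values are log2 of the deposited probe-set intensities, and a difference is the KO mean minus the WT mean on that scale, with the moderated standard error of limma (SE, n = 3 per group). A gene is read by its brightest probe set, called representative below, and is called where the Benjamini-Hochberg adjusted p over all 45037 probe sets is under 0.05. Replicates are separate mice per the study's design text. Brightness depends on the probes as well as on the RNA, so the level of a probe set describes its signal and not the amount of that RNA against another. In sorted bulk samples, fewer cells of a type and less RNA per cell cannot be told apart.

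The array medians were 5.73 to 5.78 in WT and 5.62 to 5.68 in KO. Against these, the erythroid markers gave bright signals: Tfrc (the transferrin receptor), Gata1, Klf1 and Slc4a1 had mean levels of 12.96, 12.45, 12.50 and 13.07. Of the 9 measured, 8 lay lower in KO and none was called; the median difference was -0.10, and summed intensities were 53812 to 56236 in WT and 51463 to 52743 in KO. Of the measured markers of other blood cells, none lay under the lower quartile of signal and none was called. Some were dim, such as Cd3g (4.56) and Ncr1 (4.725), and whether their RNA was present was not tested. The markers of these cells also lay lower in KO for 9 of 10 macrophage, 10 of 10 neutrophil, 6 of 7 B lineage, 6 of 7 T and NK, 5 of 5 eosinophil, basophil and mast cell and 7 of 7 early progenitor genes, and for 3 of 7 megakaryocyte genes. Of all genes tested, 56.2% lay lower in KO. In the same order the median differences of the lists were -0.25, -0.34, -0.61, -0.62, -0.74, -0.51 and 0.04, most of them larger falls than the erythroid -0.10. Of these lists the neutrophil one had the largest summed intensities, 47762 to 51176 in WT and 39525 to 45073 in KO. Its S100a8 and S100a9 had mean levels of 13.225 and 13.41. Summed intensities of the macrophage list were 9269 to 11274 in WT and 7733 to 8613 in KO. Those of the B lineage list were 5996 to 10422 and 4285 to 5719. Those of the T and NK list were 1390 to 1880 in WT and 779 to 1121 in KO. For eosinophil, basophil and mast cell genes they were 3278 to 5629 and 2334 to 2646, and for early progenitor genes 4911 to 5429 and 3932 to 4081. The megakaryocyte sums overlapped, at 6303 to 6613 in WT and 6008 to 7338 in KO. For the actin control probes, the log2 signal at the 3' end exceeded that at the 5' end by 1.65 to 1.67 across WT arrays and by 1.82 to 1.86 across KO arrays. For Gapdh the excess was 1.03 to 1.09 (WT) and 1 to 1.05 (KO). The part of these shifts in the differences below was not tested.

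The differences of the neighbours were centred where those of all genes were. Their median log2 difference was -0.03, against -0.04 over all genes tested, and 28 of 50 (56%) lay lower in KO, against 56.2% of all genes. Limma called 1 of the 50 genes (2%), Eral1, which fell. The background was 0.385% of all genes (0.148% lower and 0.236% higher in KO) and 1.58% of chromosome 11 genes. An unadjusted p under 0.05 was seen in 14 of 50 (28%), 12 lower and 2 higher, where the background was 21.0% (12.7% lower and 8.34% higher). This split moved with scaling. Where the arrays were quantile normalized again, limma's unadjusted p rose above 0.05 for Aldoc, Traf4, Phf12, Adap2, Wsb1 and Pipox (0.0501 to 0.105). In that fit it fell under 0.05 for Vtn, Ksr1, Slc46a1 and Nos2 (0.0259 to 0.0399), all higher in KO. The share of all genes with such a p was not counted in that fit. The 3 KO values lay apart from the 3 WT values in 15 genes (30%), 11 lower and 4 higher, which is near the background of 28.8% (16.2% lower and 12.5% higher). Differences were small: 46 of 50 were under 1.5-fold, and for 46 of 50 the 95% interval lay within 2-fold in either direction. The exceptions to the second count were Git1, Nek8, Fam222b and the dim Vtn.

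**Figure D1:**
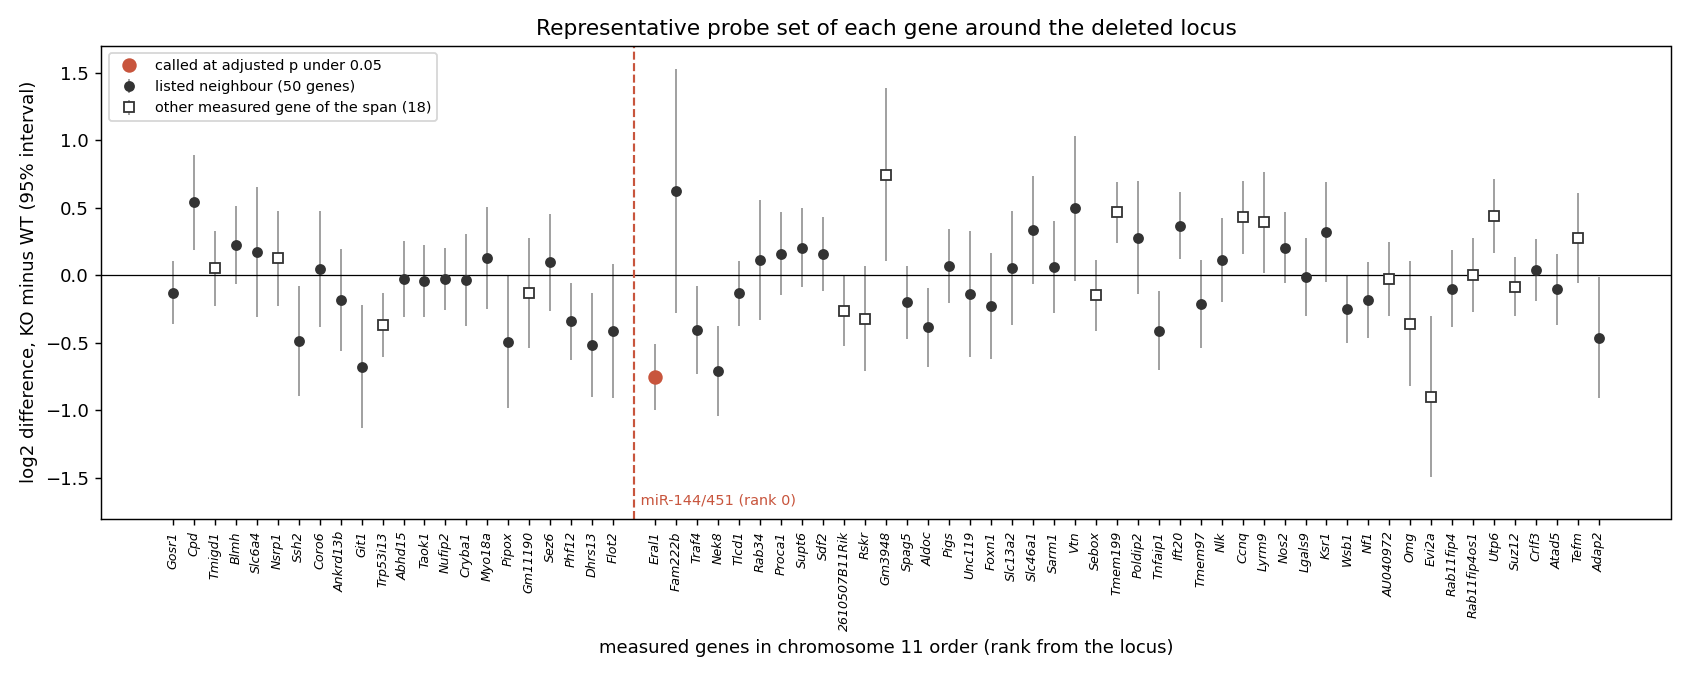
Log2 difference (KO minus WT, with its 95% interval) of the representative probe set of each measured gene, in chromosome 11 order on the x axis, with the locus at the dashed line. Eral1, next to the locus, is the only point marked as called. Of the listed genes at ranks -3 to 5, Phf12, Dhrs13, Eral1, Traf4 and Nek8 have intervals wholly below 0. Those of Flot2, Tlcd1 and Fam222b reach past 0, and Fam222b lies above 0. Farther out, Git1 (-0.68) and the unlisted Evi2a (-0.90) lie low.

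Close to the locus most neighbours lay lower in KO. Among the 9 neighbours within 5 measured genes of it, 7 lay lower in KO, and the median difference was -0.40. Of the 7, 5 had an unadjusted p under 0.05, which is 55.6% of the 9. Over all genes the share was 21.0% in either direction and 12.7% lower in KO. In 6 of these 9 the KO values lay wholly below the WT values, as in 16.2% of all genes. The 5 depended on scaling. Where the arrays were quantile normalized again, limma put Traf4 at -0.30 (unadjusted p = 0.0883) and Phf12 at -0.29 (unadjusted p = 0.0582). Eral1, Nek8 and Dhrs13 stayed under 0.05 there. The counts that follow are of the main fit. Within 10 measured genes, 11 of 18 lay lower, 6 (33.3%) had an unadjusted p under 0.05, and the median was -0.04. Of the 9 at ranks 6 to 10, 4 lay lower. Among the 32 neighbours more than 10 measured genes away, 17 lay lower, 8 (25%) had an unadjusted p under 0.05, and the median was -0.02. These windows were set after the files were at hand and were not tested, and members on one chromosome are not replicates. By side, the median was -0.04 over the 18 genes on the Flot2 side and 0.015 over the 32 on the Eral1 side.

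Eral1, a GTPase that helps assemble the small subunit of the mitochondrial ribosome, is the next measured gene after the locus. Its representative probe set read 9.26 (WT 497), 9.42 (WT 504) and 9.30 (WT 550) in wild-type cells against 8.53 (KO 493), 8.55 (KO 548) and 8.65 (KO 551), the order of arrays kept below. All KO values lay well below all WT values, at a distance several times the spread within either group. The difference was -0.75 ± 0.10 (adjusted p = 0.04998, 95% interval -0.99 to -0.51), which is 0.595 of the WT level.

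Of the 6 probe sets of Eral1, 5 lay lower in KO and 1 higher, and in each the groups did not overlap. The probe set 1433753_x_at, also called, read 9.08, 9.11 and 9.04 in WT and 8.37, 8.38 and 8.37 in KO (-0.70 ± 0.09, adjusted p = 0.0449). Those with the identifiers 1420520_x_at and 1420519_a_at were at -0.70 and -0.74 (adjusted p = 0.0579 and 0.0641), and 1429806_at at -0.51 ± 0.14 (adjusted p = 0.141). The sixth, 1458914_at, went the other way, with 5.97, 5.61 and 6.44 in WT and 7.44, 6.78 and 6.86 in KO (1.02 ± 0.26, adjusted p = 0.127). The probe sets of this gene therefore disagreed in direction, and their mean was at -0.40 (adjusted p = 0.102), which was not called. Eral1 was the only neighbour with probe sets past an unadjusted p of 0.05 in opposite directions.

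**Figure D2:**
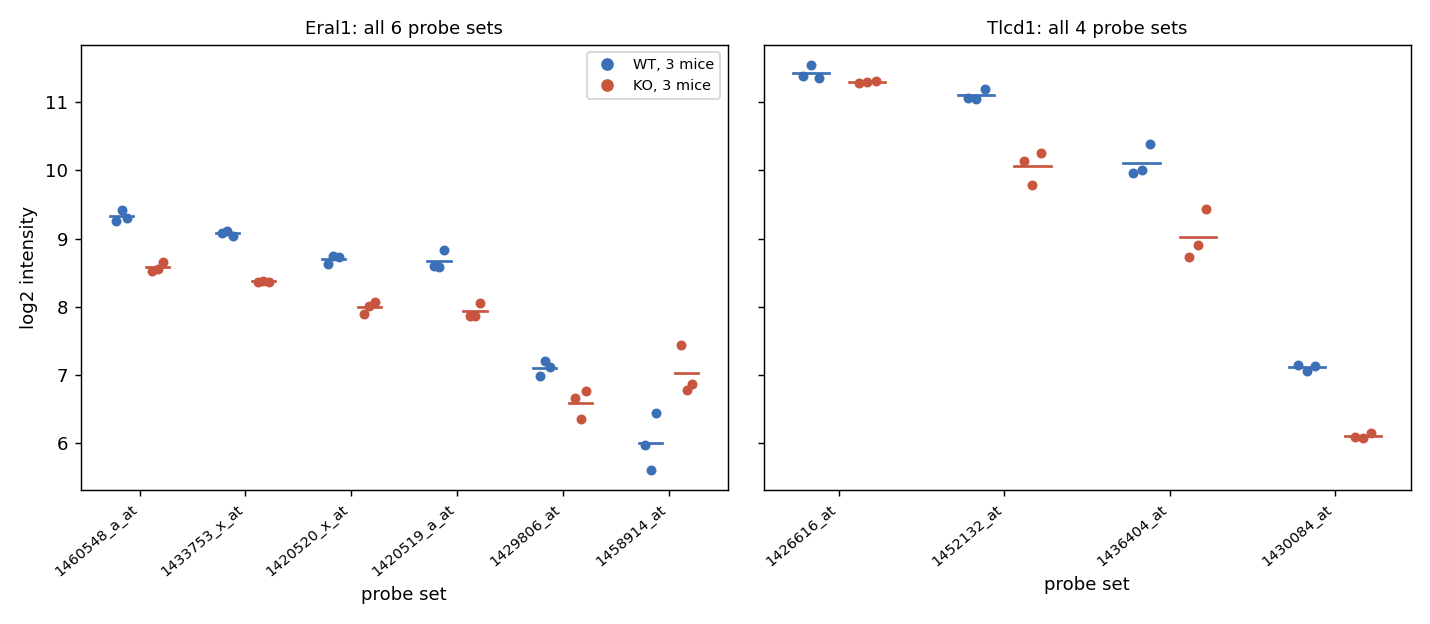
Log2 intensity of every probe set of Eral1 (left) and Tlcd1 (right) in each array, with WT in blue, KO in red, and lines at the means of 3 mice. The KO points lie below the WT points in 5 of 6 Eral1 probe sets and above them in 1458914_at; for Tlcd1 the brightest probe set shows a small gap and the other 3 a gap of about 1 log2 unit.

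Tlcd1, a membrane protein linked to phospholipid composition and the fifth measured gene after the locus, was not called by its representative probe set but fell by another. The brightest probe set, 1426616_at, read 11.39, 11.55 and 11.36 in WT and 11.29, 11.30 and 11.31 in KO (-0.13 ± 0.10, adjusted p = 0.506). In contrast, 1430084_at read 7.15, 7.06 and 7.13 in WT and 6.09, 6.07 and 6.14 in KO. Its 3 values in each group were nearly the same, and the groups lay a full log2 unit apart: -1.01 ± 0.09 (adjusted p = 0.0178, 95% interval -1.24 to -0.79), or 0.495 of the WT level. This was the smallest adjusted p among the 110 probe sets of the neighbours.

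The remaining Tlcd1 probe sets showed gaps of the same size. The probe set 1452132_at read 11.07, 11.05 and 11.19 in WT and 10.14, 9.79 and 10.25 in KO (-1.04 ± 0.14, adjusted p = 0.0503), which just missed the threshold. The last, 1436404_at, read 9.96, 10 and 10.39 in WT and 8.73, 8.91 and 9.43 in KO (-1.09 ± 0.21, adjusted p = 0.0845). All KO values lay below all WT values in each. As the mean of its 4 probe sets Tlcd1 was called, at -0.82 ± 0.11 (adjusted p = 0.0329), where the background of that fit was 0.704% of genes. Which stretch of the transcript each probe set reads was not determined here.

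Counted by probe set, limma called 3 of 110 (2.73%), 2 of Eral1 and 1 of Tlcd1, and all lower, where the background was 0.355% of all probe sets and 0.171% in the lower direction. An unadjusted p under 0.05 was seen in 33 of 110, against a background of 19.8%, and no overlap between groups in 34, against 26.0%. Probe sets of one gene can read the same RNA, so these cannot be taken as independent counts. All 3 calls ended whichever array was left out. Without WT 497, WT 504, WT 550, KO 493, KO 548 or KO 551 the representative difference of Eral1 stayed between -0.79 and -0.70 (adjusted p = 0.112 to 0.164), and that of the Tlcd1 probe set 1430084_at between -1.04 and -0.995 (adjusted p = 0.0741 to 0.106). The calls also ended with a block for low against high title numbers, where Eral1 had an adjusted p = 0.113 and 1430084_at an adjusted p = 0.0632.

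The genes between and around these showed smaller gaps that were not called. Nek8, a kinase of the primary cilium that lies just before Tlcd1, read 9.54, 9.63 and 9.77 in WT and 8.79, 8.85 and 9.18 in KO. The groups were well apart, at -0.71 ± 0.14 (adjusted p = 0.0873, 95% interval -1.04 to -0.37). It was called where limma's prior followed an intensity trend (adjusted p = 0.0232), a fit in which the background was 4.42% of genes. Its dimmer probe set was at -0.23 ± 0.13.

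Traf4, an adaptor of the TRAF family, read 7.37, 7.56 and 7.47 in WT and 6.88, 7.30 and 7.01 in KO. Its groups were close but did not overlap (-0.40 ± 0.14, adjusted p = 0.19), with a second probe set at -0.43 ± 0.15. Fam222b, between Eral1 and Traf4, read 5.97, 5.67 and 5.77 in WT and 6.04, 7.37 and 5.87 in KO. The difference of 0.62 ± 0.38 (adjusted p = 0.406) rested on KO 548 and was 0.15 without it.

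On the other side, Flot2, a scaffold protein of membrane rafts next to the locus, read 9.68, 9.13 and 9.62 in WT and 8.76, 9.36 and 9.07 in KO. Its groups overlapped, because WT 504 lay below KO 548 (-0.41 ± 0.21, adjusted p = 0.325), and the difference was -0.26 without KO 493. Dhrs13, a member of the short-chain dehydrogenase family, read 8.49, 7.91 and 8.21 in WT and 7.59, 7.77 and 7.70 in KO, so the groups did not overlap (-0.52 ± 0.16, adjusted p = 0.167). Phf12, a PHD finger protein of the SIN3 corepressor complex, read 8.54, 8.63 and 8.74 in WT and 8.33, 8.42 and 8.14 in KO (-0.34 ± 0.12, adjusted p = 0.196). Its dimmer probe set was at 0.007 with overlapping groups, and the mean of its probe sets at -0.17 (adjusted p = 0.487). Sez6, a neuronal membrane protein beyond Phf12, was at 0.10 ± 0.15 with overlapping groups.

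**Figure D3:**
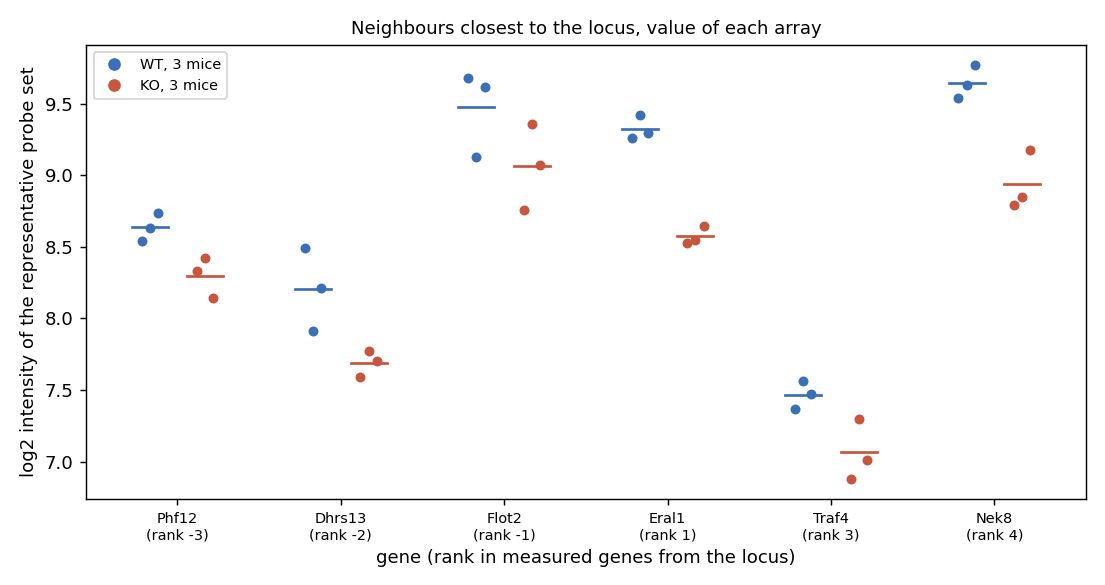
Log2 intensity of the representative probe set in each array for 6 genes close to the locus, ordered by rank in measured genes from it, with WT in blue, KO in red and lines at the means of 3 mice. Eral1 and Nek8 have the widest gaps, and only Flot2 has overlapping groups.

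Among the 15 genes of metabolism, transport and protein maturation, 1 (6.67%) was called, Eral1, which lay lower. An unadjusted p under 0.05 was seen in 5 (33.3%), and the median difference was 0.06. Over all genes tested, 0.385% were called and 21.0% had such a p, which is the background for each role group. Cpd, carboxypeptidase D of the trans-Golgi network, had the most uniform higher values: it read 8.87, 8.80 and 8.62 in WT and 9.11, 9.56 and 9.25 in KO (0.54 ± 0.15, adjusted p = 0.138). All 7 of its probe sets lay higher in KO, by 0.20 to 0.88, and 5 of them had an unadjusted p under 0.05, but none was called. KO 548 was the highest KO array in 6 of these 7 probe sets. Aldoc, the brain form of the glycolytic enzyme aldolase, read 6.69, 6.52 and 6.78 in WT and 6.33, 6.13 and 6.38 in KO (-0.38 ± 0.12, adjusted p = 0.173), while its dimmer probe set was at 0.09.

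Pipox, a peroxisomal oxidase of pipecolic acid and sarcosine, was at 5.63 ± 0.36 in WT and 5.14 ± 0.21 in KO (SD, n = 3), with overlapping groups (-0.49 ± 0.21, adjusted p = 0.249; -0.32 without WT 550). Slc46a1, the proton-coupled folate transporter, was at 0.34 ± 0.17 (adjusted p = 0.321; 0.21 without KO 551), and the peptidase Blmh at 0.23 ± 0.12 (adjusted p = 0.353). The other 7 with overlapping groups lay between -0.21 (Tmem97, a sterol-related membrane protein) and 0.28 (Poldip2): they include the serotonin transporter Slc6a4, Sdf2 of the endoplasmic reticulum, Pigs, which attaches GPI anchors, the dicarboxylate transporter Slc13a2, and Abhd15. Of these, Slc13a2 lay under the lower quartile of signal.

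Of the 8 genes of membrane traffic, rafts and cilia, limma called 0, and the median was -0.13. An unadjusted p under 0.05 was seen in 2 (25%), and the intensity trend called 2 (background 4.42%). Besides Nek8, the second was Ift20, a subunit of the ciliary transport machinery that also sits at the Golgi. It read 10.14, 10.15 and 10.17 in WT and 10.48, 10.44 and 10.65 in KO. The WT values were almost equal, and every KO value lay above them (0.37 ± 0.10, adjusted p = 0.144; adjusted p = 0.0436 with the trend). Flot2 is described above, and Gosr1, Ankrd13b, Unc119, Rab34 and Rab11fip4 lay between -0.18 and 0.11 with overlapping groups.

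Of the 11 signalling genes, limma called 0 and the trend 0, and the median was -0.18. An unadjusted p under 0.05 was seen in 5 (45.5%), all lower, where the background was 21.0% in either direction and 12.7% in that one. The 5 depended on scaling. Where the arrays were quantile normalized again, limma's unadjusted p stayed under 0.05 for Git1 (0.0143) and Tnfaip1 (0.0367). It rose to 0.0883 for Traf4, 0.105 for Adap2 and 0.0521 for Wsb1. Ksr1, higher in KO, came under 0.05 in that fit (0.0259). Git1, a scaffold and GTPase-activating protein for ARF, read 8.42, 8.03 and 8.65 in WT and 7.63, 7.93 and 7.51 in KO. The groups did not overlap, but WT 504 and KO 548 came within 0.1 of each other (-0.68 ± 0.19, adjusted p = 0.146). Tnfaip1, an adaptor that brings RhoA to a cullin ubiquitin ligase, read 7.71, 7.57 and 7.52 in WT and 7.01, 7.32 and 7.24 in KO (-0.41 ± 0.12, adjusted p = 0.159). Its dimmer probe sets 1417865_at and 1417866_at were at -0.18 and -0.20, with overlapping groups. Adap2, another GTPase-activating protein for ARF, was at -0.46 ± 0.19 with overlapping groups (adjusted p = 0.242). Its second probe set was at -0.43 ± 0.16.

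Wsb1, a substrate receptor of a ubiquitin ligase, read 10.88, 10.96 and 10.76 in WT and 10.58, 10.68 and 10.59 in KO (-0.25 ± 0.10, adjusted p = 0.248). Ksr1, the scaffold of the RAF-MEK-ERK cascade, was at 0.32 ± 0.16 (adjusted p = 0.311) by its representative probe set and at -0.21 and -0.20 by the others, so this array gives it no single direction. The RAS inhibitor Nf1 was at -0.18, with a dim second probe set at -0.45 ± 0.14 (adjusted p = 0.165). The kinases Taok1 and Nlk, the cytokine receptor-like Crlf3 and the NAD-cleaving Sarm1 lay between -0.04 and 0.11. For Taok1, 6 of 7 probe sets lay lower in KO, by at most 0.19.

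The 4 cytoskeletal and division genes held 0 calls by limma or with the trend and 1 unadjusted p under 0.05 (25%), with a median of -0.08. Ssh2, the slingshot phosphatase that activates the actin-severing protein cofilin, read 10.34, 9.72 and 9.95 in WT and 9.59, 9.40 and 9.57 in KO. Its groups did not overlap (-0.48 ± 0.17, adjusted p = 0.201; -0.32 without WT 497), and its second probe set was at -0.53 ± 0.20. Spag5, which encodes the spindle protein astrin, was at -0.20 ± 0.11 (adjusted p = 0.371). A second probe set, 1433892_at, was at -0.36 ± 0.12 with groups apart (adjusted p = 0.18), and the third was at -0.14. Coro6 and Myo18a were at 0.05 and 0.13.

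The 5 genes of transcription, chromatin, RNA and DNA held 0 calls by limma or with the trend and 1 unadjusted p under 0.05 (20%), that of Phf12. Supt6, a histone chaperone of transcription elongation, was at 0.21 ± 0.12 (adjusted p = 0.4; 0.12 without KO 548). Nufip2, an RNA-binding protein, was at -0.03 with a 95% interval of -0.26 to 0.20, and Atad5, which unloads the replication clamp PCNA, at -0.10. A second Atad5 probe set was at -0.61 ± 0.26 (adjusted p = 0.258), with KO 551 inside the WT range. Foxn1, the thymic epithelial factor, was at -0.23 ± 0.16 near the lower end of the scale, at 4.60 ± 0.21 in WT and 4.37 ± 0.23 in KO (SD).

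Of the 5 secreted, immune and tissue-restricted genes, limma called 0, the trend 0 and none had an unadjusted p under 0.05. Vtn, the plasma protein vitronectin, was under the lower quartile of signal, at 3.65 ± 0.46 in WT and 4.14 ± 0.07 in KO (SD), with groups just apart (0.50 ± 0.23, adjusted p = 0.282; 0.24 without WT 504), while its second probe set was at -0.14. Nos2, the inducible nitric oxide synthase, read 4.47, 4.64 and 4.70 in WT and 4.89, 4.78 and 4.76 in KO (0.21 ± 0.11, adjusted p = 0.345), a dim signal whose groups did not overlap. Galectin-9, Lgals9, was at 9.97 ± 0.14 and 9.96 ± 0.12 (SD), a difference of -0.01 with a 95% interval of -0.30 to 0.28. The lens crystallin Cryba1 was at -0.03 and Sez6 is described above. Proca1 was at 0.16 ± 0.13.

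**Figure D4:**
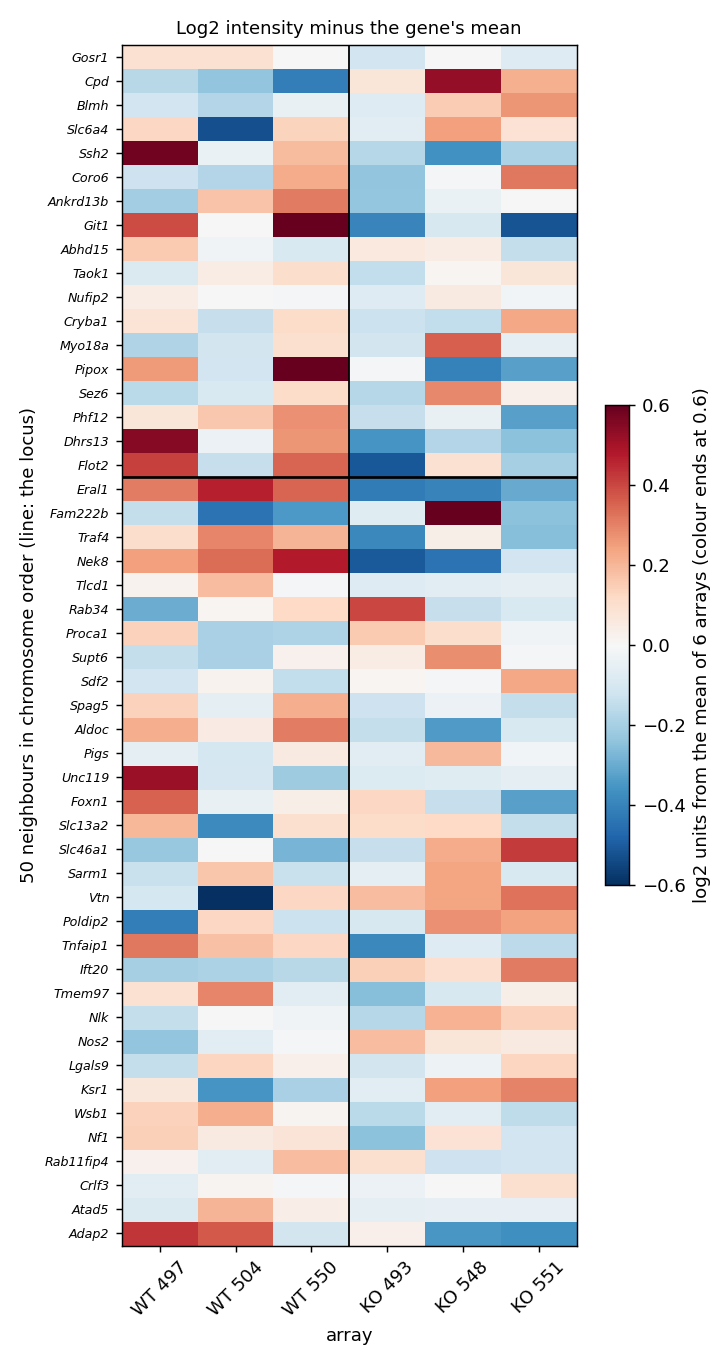
Log2 intensity of each of the 50 neighbours (rows, in chromosome order, with a line at the locus) in each of 6 arrays (columns), minus the mean of the gene over the arrays; red is above the mean and blue below, and the colour scale ends at 0.6. The rows just around the line, from Phf12 to Nek8, are red in WT and blue in KO except for Fam222b and single arrays, while most other rows show no split between the genotypes.

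By signal, 41 of 50 representative probe sets lay above the median of all probe sets, with the 3 brightest signals from those of Atad5, Spag5 and Tlcd1. This is no order of RNA amounts. Among these 41, 13 (31.7%) had an unadjusted p under 0.05 and 13 had groups apart. Of all genes above that median 27.1% had such a p and 37.4% had groups apart, so the neighbours' shares were near those of genes of like signal. The number of neighbours called differed between settings, as did the share of all genes called. Limma called 0 where the arrays were quantile normalized again (background 0.511% of genes) or brought together by cyclic loess (0.407%), and 1 when probe sets with the suffix _x_at or _s_at were dropped (0.436%). It called 0 with the block (0.0550%) and 0 without WT 497 (0.0715%), WT 504 (0.0715%), WT 550 (0.0495%), KO 493 (0.0770%), KO 548 (0.0275%) or KO 551 (0.0715%). Eral1 and Nek8 were called without dim probe sets (4.40%) and with an offset of 16 before the log (2.56%), and Ift20 as well with the trend. As genes, these 3 settings called 2 of 41, 2 of 50 and 3 of 50 neighbours. As probe sets, they called 8 of 78, 8 of 110 and 9 of 110, with backgrounds of 4.51%, 2.26% and 3.53%. The 9 probe sets called with the trend belonged to Tlcd1, Eral1, Nek8 and Ift20 only.

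Several probe sets were available for 34 neighbours, and the signs of their differences disagreed in 13. The median range of the differences within a gene was 0.24, and the widest were those of Eral1 (1.77) and Tlcd1 (0.96).

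Between the outermost neighbours, Gosr1 and Adap2, lay 18 other measured genes. Limma called 0 of them, where the background was 0.385% of all genes. An unadjusted p under 0.05 was seen in 8 (44.4%), 5 higher and 3 lower, against 21.0% of all genes. Groups lay apart in 9 (50%), 5 higher and 4 lower, against 28.8% of all genes and 30% of the listed neighbours. The trend called 1, Tmem199 (adjusted p = 0.0425), in a fit with a background of 4.42%. The median of the 18 was -0.01. Tmem199, which encodes an assembly factor of the proton-pumping V-ATPase, read 8.77, 8.74 and 8.80 in WT and 9.24, 9.29 and 9.18 in KO. All KO values lay above the WT values (0.47 ± 0.10, adjusted p = 0.0911).

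Some neighbours share a start region with a gene on the opposite strand, and these are shown because partners can be compared side by side. RefSeq promoter windows, from 250 bases before to 50 after a start, were found for 47 of 50 neighbours (62 windows), and not for Nos2, Rab11fip4 and Sez6. Of these windows 7 (11.3%) overlapped a window of another gene on the opposite strand, against 10.8% of all 32851 windows. The head-to-head genes were Ift20 with Tnfaip1, Poldip2 with Tmem199, Sdf2 with Supt6, and Spag5 with the dim Gm3948. The plus-strand windows of Ift20 (chr11:78536111-78536410) and Poldip2 (chr11:78512046-78512345, both GRCm38.p6) follow, with the bases shared with the partner's window in capitals.
Ift20 window: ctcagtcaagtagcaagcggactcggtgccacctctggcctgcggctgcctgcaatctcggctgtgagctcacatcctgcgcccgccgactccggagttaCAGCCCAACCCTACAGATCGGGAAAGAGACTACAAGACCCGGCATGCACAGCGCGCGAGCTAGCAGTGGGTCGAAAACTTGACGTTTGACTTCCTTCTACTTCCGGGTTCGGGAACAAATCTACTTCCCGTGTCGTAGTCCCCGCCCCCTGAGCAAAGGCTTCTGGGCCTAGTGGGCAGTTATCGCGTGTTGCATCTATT
Poldip2 window: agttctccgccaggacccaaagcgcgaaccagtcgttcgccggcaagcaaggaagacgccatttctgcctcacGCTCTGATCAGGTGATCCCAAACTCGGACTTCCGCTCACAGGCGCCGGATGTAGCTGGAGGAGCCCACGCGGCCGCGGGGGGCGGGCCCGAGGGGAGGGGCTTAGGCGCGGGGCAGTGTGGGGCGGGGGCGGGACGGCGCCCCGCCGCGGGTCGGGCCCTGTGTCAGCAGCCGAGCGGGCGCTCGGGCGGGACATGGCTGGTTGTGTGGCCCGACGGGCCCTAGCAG

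The differences of partners lay on opposite sides of 0 for Ift20 with Tnfaip1 and for Spag5 with Gm3948, and on the same side for the other pairs. Ift20 and Tnfaip1, whose windows share 200 bases, were at 0.37 ± 0.10 and -0.41 ± 0.12 by their representative probe sets, and neither was called by limma. The dimmer Tnfaip1 probe sets were at -0.18 and -0.20, with overlapping groups. Poldip2, a partner of DNA polymerase delta, was at 0.28 ± 0.18 by its representative probe set and at 0.39 ± 0.13 by the other (adjusted p = 0.177), on the same side as Tmem199, whose window shares 227 bases with it. Sdf2 and Supt6 were at 0.16 ± 0.12 and 0.21 ± 0.12. Spag5 was at -0.20 and Gm3948 at 0.75 ± 0.27 (adjusted p = 0.205).

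**Figure D5:**
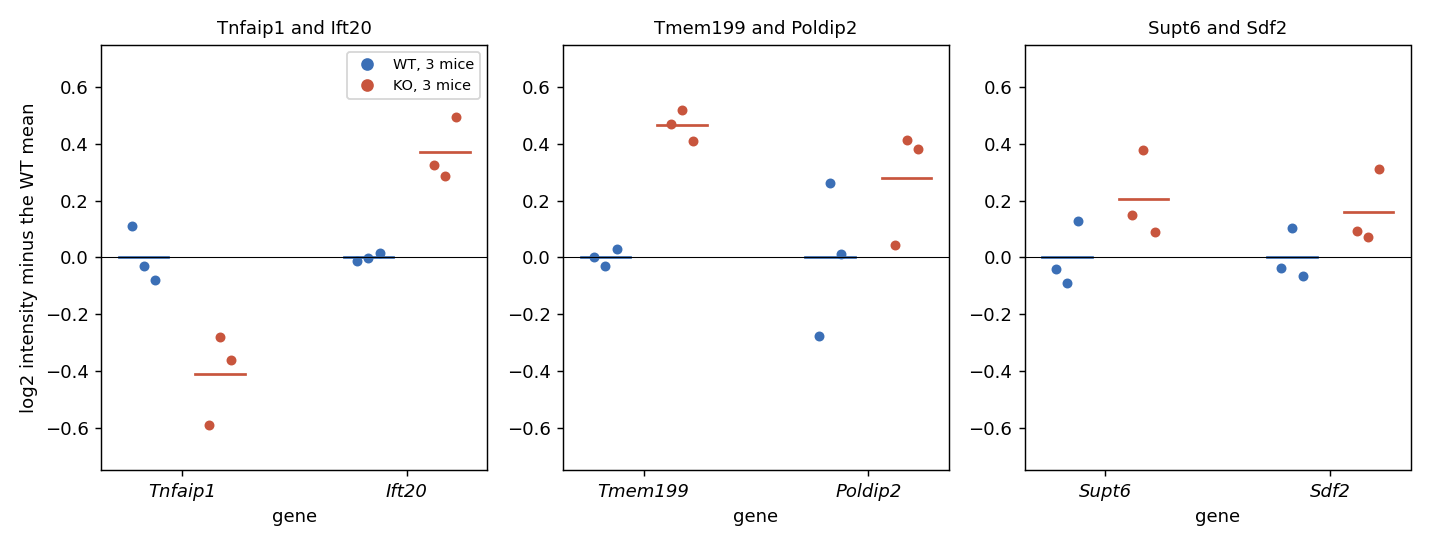
Log2 intensity of the representative probe set minus its WT mean for 3 head-to-head gene pairs, per array. WT is in blue, KO in red, and lines are at the means of 3 mice. KO values of Tnfaip1 lie below and those of Ift20 above all WT values; Tmem199 lies above, and Poldip2, Supt6 and Sdf2 overlap with WT.

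Promoter windows of the neighbours were also searched on both strands for letters bound by the factors that switch on red cell genes. The GATA motif AGATAA was in 2 of 62 windows (3.23%), those of Coro6 and Rab34, against 11.2% of all windows. Its variant TGATAA was in 3 (4.84%), those of Fam222b, Myo18a and Wsb1, against 9.05%. The KLF1 motif CCACACCC was in 1, that of Ankrd13b (1.61%, against 3.56%). None of these motifs was in a window of Eral1, Tlcd1, Nek8 or Ift20, which says only that these letters are not in those 300 bases.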

How the data were processed

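The authors deposited 1 table of probe-set intensity values for the 6 arrays, with RMA, robust multi-array averaging, named in the labels (per the submitters' processing notes); software, version and background step were not given in the sources used here. Because RMA gives every array about the same distribution, it would partly take out a change common to most transcripts. The deposited values were linear. Their log2, which had 2 decimals in 100% of cases, was used with no further normalization.

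After 64 control probe sets were left out, 45037 were tested by moderated linear models, KO against WT with no covariate (limma 3.58.1, lmFit then eBayes; R 4.3.3), and Benjamini-Hochberg adjustment; the code was tested on simulated data. Gene names came from GEO's platform annotation, and gene order from RefSeq (GRCm38.p6). Updating symbols through Entrez IDs changed the probe sets of 0 neighbours. No signal filter was applied, and the number of arrays limits the precision.

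The neighbours, role groups and marker lists were chosen with earlier results of these data known. Genes described most fully are Eral1, Flot2, any neighbour with a called probe set, those with the smallest p to a total of 24, the leading gene of each role group, and the 3 brightest; the other neighbours are given by their difference so that each is accounted for. Partners in shared start regions and the unlisted Evi2a were added after their values were seen. Alternatives were other scalings, an intensity trend, a signal filter, an offset of 16, other choices of probe set, a block and leaving out each array.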

Additional observations from a re-analysis of the deposited data

How the results depend on the processing

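The number of neighbours called (1, Eral1) was 0 after another quantile normalization, 0 after cyclic loess and 0 with a block for low against high title numbers. It was 3 with an intensity trend and robust prior (Eral1, Nek8 and Ift20), 2 without dim probe sets and 2 with an offset of 16 (Eral1 and Nek8 in both). The 3 called probe sets became 9, 8 and 8 under those last 3 settings, where 804, 473 and 465 genes were called in all, and 0 with the block. Other genes of the span went from 0 called to 1 under each of the 3, Tmem199 every time. Leaving out any 1 array gave 0 called neighbours, 0 called probe sets and 0 other genes. With a gene's probe sets averaged 1 neighbour was called, but it was Tlcd1, not Eral1. Of the 24 neighbours followed, 23 kept their direction under each alternative that gave them a value; Nos2, Pipox and Vtn had none without dim probe sets. Ksr1 reversed, from 0.32 to -0.028 with probe sets averaged and to -0.21 when probe sets with the suffix _x_at or _s_at were dropped, where a different probe set is read. Where not said otherwise, the cause was not tested. No paired analysis was possible because the groups share no replicate number. The design has 3 mice per group, and dim signals such as those of Vtn, Slc13a2, Nos2 and Foxn1 limit what can be seen there.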
